A study of Mus musculus with 10 samples.

Results

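Of the 211107 merged accessible regions in Myc-CaP cells, 17312 (8.20%) were called with the Oxali + IFNγ combination and in none of the other 4 treatment groups. They were chosen by the peak calls themselves: the called intervals of all 5 lists were merged where they overlapped by 1 bp, and a merged region was kept when it held an interval of the combination list and no interval of the Ctrl, Oxali, Cispl or IFNγ list. They made up 10.4% of the 166929 merged regions with a combination call, and their number and strength are therefore a description of the calls and not a result. Myc-CaP is a mouse prostate cancer line of the FVB/NJ background, driven by a Myc transgene under a prostate promoter, and the cells of all 5 groups were 1 line harvested after 48 h. The groups were untreated cells (Ctrl), oxaliplatin at 2 µM (Oxali), cisplatin at 2 µM (Cispl), IFNγ at 1000 pg (per ml, from the methods), and oxaliplatin at 2 µM with IFNγ at 1000 pg (Oxali + IFNγ). Each group had 2 libraries, which the authors pooled before they called peaks, so each group is 1 list with no spread between replicates. No test between groups was made, the p and q values below are the peak caller's own for single intervals, and the 95% Wilson intervals beside shares cover counting error over regions only.

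ATAC-seq reads where the Tn5 transposase can enter chromatin, and a called region marks an accessible stretch such as a promoter or an enhancer. IFNγ signals through its receptor, JAK1 and JAK2 to the gamma-activated site (GAS), and then through interferon regulatory factors such as IRF1, which bind the interferon-stimulated response element (ISRE). Its best known targets are the guanylate-binding proteins and immunity-related GTPases, the antiviral genes, and the class I and class II antigen presentation genes with their transactivators Nlrc5 and Ciita. Oxaliplatin and cisplatin are platinum drugs that crosslink DNA and activate the damage response.

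Sequence was not used to choose the regions, so elements in it could be looked for. The reference sequence (GRCm38, the build of the mm10 coordinates in the lists, plus strand) is given below for 100 bp on either side of the summit of 10 such regions, with ISRE matches (GAAA, any 2 bases, then GAAA, on either strand) and GAS matches (TTCNNNGAA) in capitals. The first 6 lie within 50 kb of a start of an interferon-list gene and are the ISRE-holding regions of highest fold over background there, the next 3 have the highest fold among all regions with an ISRE farther away, and the last, the strongest region near an interferon gene, holds neither element.
Igtp upstream, chr11:58183787-58183987: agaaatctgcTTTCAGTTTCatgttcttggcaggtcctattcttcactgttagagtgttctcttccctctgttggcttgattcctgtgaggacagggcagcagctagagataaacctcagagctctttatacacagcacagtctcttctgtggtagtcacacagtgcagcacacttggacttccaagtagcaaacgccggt
Gbp4 upstream, chr5:105145843-105146043: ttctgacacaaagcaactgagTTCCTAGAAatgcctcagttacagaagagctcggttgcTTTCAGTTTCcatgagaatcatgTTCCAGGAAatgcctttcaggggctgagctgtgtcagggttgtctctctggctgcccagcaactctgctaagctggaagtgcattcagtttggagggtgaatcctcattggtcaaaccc
Gbp8 intron, chr5:105062553-105062753: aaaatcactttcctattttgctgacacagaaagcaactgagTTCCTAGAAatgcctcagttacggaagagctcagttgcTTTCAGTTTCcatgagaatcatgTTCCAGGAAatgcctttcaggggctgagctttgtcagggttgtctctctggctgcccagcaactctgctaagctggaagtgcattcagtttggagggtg
Oas2 start, chr5:120749818-120750018: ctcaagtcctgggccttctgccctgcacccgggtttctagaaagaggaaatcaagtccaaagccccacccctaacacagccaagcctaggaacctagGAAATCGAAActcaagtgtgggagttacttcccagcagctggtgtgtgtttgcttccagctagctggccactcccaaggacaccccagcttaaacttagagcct
Casp1 start, chr9:5298565-5298765: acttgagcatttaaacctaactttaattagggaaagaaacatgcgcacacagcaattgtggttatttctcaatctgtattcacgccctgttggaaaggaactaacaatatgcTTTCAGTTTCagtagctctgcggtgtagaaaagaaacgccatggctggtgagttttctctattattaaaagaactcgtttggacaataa
Usp18 upstream, chr6:121226917-121227117: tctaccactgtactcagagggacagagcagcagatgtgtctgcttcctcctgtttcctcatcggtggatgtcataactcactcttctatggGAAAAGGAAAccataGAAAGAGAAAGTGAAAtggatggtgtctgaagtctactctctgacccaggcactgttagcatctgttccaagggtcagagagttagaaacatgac
near Plppr5, chr3:117472368-117472568: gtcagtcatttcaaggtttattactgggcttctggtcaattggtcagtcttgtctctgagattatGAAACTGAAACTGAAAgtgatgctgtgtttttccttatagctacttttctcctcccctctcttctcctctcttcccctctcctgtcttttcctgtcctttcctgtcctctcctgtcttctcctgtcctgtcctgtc
near Rgs17, chr10:6053509-6053709: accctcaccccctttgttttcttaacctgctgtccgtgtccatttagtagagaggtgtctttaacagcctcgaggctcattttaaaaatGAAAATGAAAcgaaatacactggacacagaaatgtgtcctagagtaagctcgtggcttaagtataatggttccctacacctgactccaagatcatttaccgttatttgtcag
Capza2 intron, chr6:17655196-17655396: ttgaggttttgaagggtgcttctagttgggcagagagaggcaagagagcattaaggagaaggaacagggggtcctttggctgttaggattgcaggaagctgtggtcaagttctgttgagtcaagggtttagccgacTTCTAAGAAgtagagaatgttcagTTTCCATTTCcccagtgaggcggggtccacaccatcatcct
Ciita upstream, chr16:10452506-10452706: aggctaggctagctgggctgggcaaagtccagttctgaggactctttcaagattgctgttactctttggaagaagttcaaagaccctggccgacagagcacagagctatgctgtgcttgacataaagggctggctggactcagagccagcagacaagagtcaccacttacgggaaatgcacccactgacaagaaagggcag
The Gbp4 upstream and Gbp8 intron windows are close copies: 173 of 181 aligned bases (95.6%) are identical at an offset of 20 bp, and they share 1 ISRE between a pair of GAS. The 50 bases around the Gbp8 summit occur 3 times in the genome, so reads there could come from another copy, while those of each of the other 9 windows occur 1 time. The Usp18 upstream window holds 3 ISRE matches centred within 17 bp of its summit, and the Plppr5 window holds 2 that overlap by 4 bp.

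The regions were narrow and shallow. Their pileup, the number of extended read ends stacked at the summit over both libraries, ran from 22 to 707 with a median of 34 and quartiles of 29 and 41, against a median of 81 for all 174709 intervals of the combination list. The fold of pileup over local background had a median of 2.30 and a highest value of 8.89, and the median −log10 q was 4.47. The median width was 181 bp, 92.8% had 1 summit, and 75.3% stood within 1% of the lowest background of the list, 12.9 reads. By strength, 85.1% had q of at most 0.01, 40.5% had q of at most 1e-05, and 162 (0.936%) reached a fold of at least 4.

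**Figure D1:**
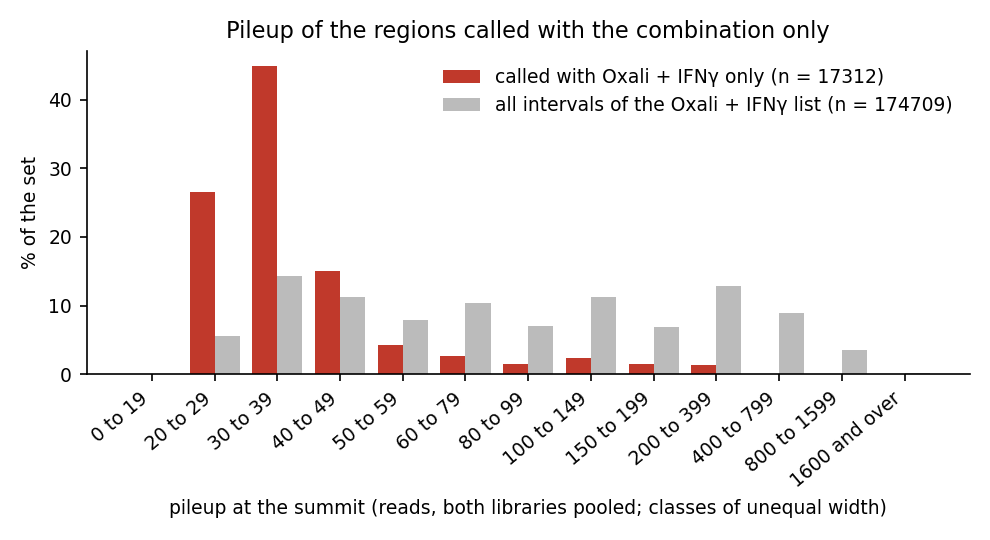
Share of regions (vertical axis, percent) by pileup at the summit (horizontal axis, reads, classes of unequal width) for the 17312 regions called with Oxali + IFNγ only and for all 174709 intervals of that list. The combination-only regions gather between 20 and 49 reads, where the median is 34, while the whole list, with a median of 81, reaches far higher.

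Depth differed between the lists. In pooled bulk cells, a region open in few cells and one weakly open in many cannot be told apart. Taking the lowest background of each list as its depth, the Ctrl, Oxali, Cispl and IFNγ lists stood at 94.1%, 87.3%, 107% and 74.6% of the combination list. At its lowest background, a region needed a pileup of 21 to be called in the Ctrl list, 20 in the Oxali list, 26 in the Cispl list, which ends at −log10 p of 2.99 where the others end at 2.00, and 18 in the IFNγ list. Scaled to these depths, the pileup of 16146 of the regions (93.3%) would have reached the limit of every other list. The same pileups chose the regions, so this count is a description, and the part of depth in the calls was not tested. How far replicates vary around such a limit was not tested, since the libraries were pooled. Near the limit of the rule, the weakest of the regions were called at −log10 p of 2.01 with pileups of 29, 25 and 34. Just outside it, chr6:39228429-39228607 had a pileup of 43 with the combination and was left out because the IFNγ list held it at 19 reads and −log10 p of 2.00. Of the 18856 regions called with the combination and 1 other list, 543 (2.88%) had −log10 p under 3 in that other list.

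The nearest interval of another list was a median of 1877 bp away, 29.8% (29.1 to 30.5) were within 500 bp of one, and 16.1% were over 10 kb from any. The share within 500 bp was lower than for regions called only with Cispl (39.0%), IFNγ (40.3%), Oxali (35.3%) or Ctrl (34.3%). It reached 64.6% among the 650 regions whose local background was at least 5 times the lowest against 22.8% of those within 1% of the lowest background.

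By position, 9.75% of the regions (9.32 to 10.2) overlapped 1 kb on either side of an annotated start site, 5.23% an exon, 39.8% an intron, and 45.2% were intergenic. Among all merged regions the start-site share was 15.9% and the intergenic share 37.3%. The Oxali-only regions were alike (8.35% and 44.3%), as were those shared by the combination and Oxali (7.98% and 46.0%), and the IFNγ-only regions had 12.4% and 41.2%. Regions called only with Cispl had 11.0% at start sites but more introns (51.1%) and fewer intergenic positions (31.1%). The intergenic share was higher still, 96 of 162 (59.3%, 51.6 to 66.5), among the regions with a fold of at least 4, of which 5 were at a start site. The summit window had a median GC content of 48.3%, against 49.3% for all merged regions, and was masked as repeat over more than 50% of its length in 15.8% against 17.2%. Between the chromosomes, the regions were 7.11% (chromosome 11) to 10.2% (chromosome 18) of the merged regions, with 11.1% of the 90 on chromosome Y.

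The ISRE was more frequent in these regions than in any other set compared. A match lay within 100 bp of the summit in 945 of them (5.46%, 5.13 to 5.81), against 2.58% of all merged regions, 2.21% of the 19225 called only with Cispl, 2.39% of the 4946 called only with Oxali and 1.26% of the 5386 called only with IFNγ. Regions shared by the combination and 1 other group held fewer: 3.89% of the 10170 shared with Oxali, 3.85% of the 7097 shared with Cispl and 1.96% of the 967 shared with IFNγ. A stricter ISRE, with T as the base before the second GAAA, was found in 2.32% (2.11 to 2.56) against 0.875% of all merged regions and 0.515% of the Cispl-only regions. The same letters were also searched in another order. The motif with AGAA in place of GAAA matched 3.15% of the regions and 2.22% of all merged regions. The motif with AAGA, which is the AGAA motif read backwards, matched 2.21% and 1.68%. Both orders searched were therefore also more frequent, by less. The AGAA motif and the ISRE can match the same stretch, shifted by 1 base, and the part of base composition was not tested. The ISRE read backwards matched 4.14% and 2.28%, but its letters overlap those of the ISRE, and 315 of the 717 regions with it also held an ISRE.

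The share of regions with an ISRE rose with the strength of the call. It was 3.08% of the 3728 regions with a fold under 2, 5.25% of the 11538 with a fold of 2 to 3, 9.18% of the 1884 with a fold of 3 to 4, and 31.5% (24.8 to 39.0) of the 162 with a fold of at least 4. The Cispl-only regions had no such rise, and the same classes held 1.84%, 2.30%, 2.41% and 1.66% of 604, nor had the IFNγ-only regions, with 1.39%, 1.01%, 2.43% and 0.885% of 113. Oxali-only regions held 2.05%, 2.36% and 2.95% in the first 3 classes, with 19 regions in the last, and Ctrl-only regions held 1.04%, 1.62% and 2.24% (1.03 to 4.80), with 15 in the last. The stricter ISRE went from 0.885% to 18.5% over the same classes of the combination-only regions. The AGAA motif went from 2.44% to 10.5% (6.66 to 16.2), and the AAGA motif from 1.58% to 3.70%. The ISRE read backwards, which shares letters and regions with the ISRE, also climbed, from 2.74% through 4.04% and 6.21% to 19.8% (14.4 to 26.6).

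**Figure D2:**
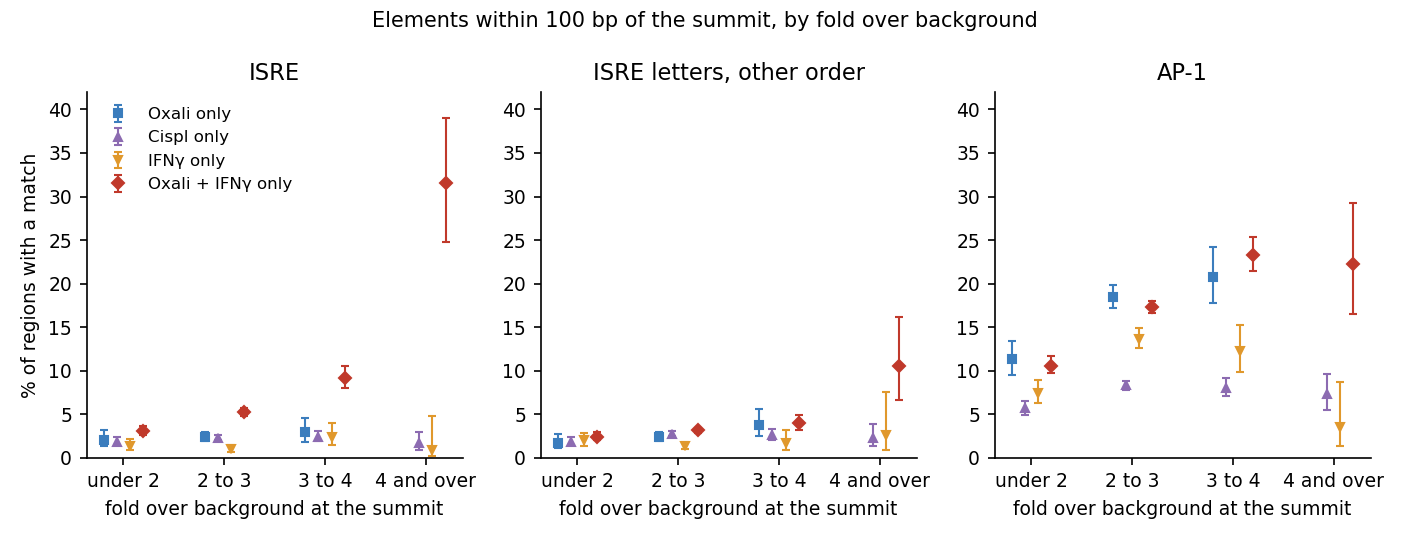
Share of regions with a match within 100 bp of the summit (vertical axis, percent, with 95% Wilson intervals) by fold over background (horizontal axis), for regions called in 1 list only, in 3 panels for the ISRE, the AGAA order of its letters and AP-1; classes of under 100 regions are not drawn. The ISRE share of the combination-only regions climbs from 3.08% to 31.5%, and in the other 3 lists drawn it stays under 3%.

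The matches were most frequent near the summit. In 20 bp steps, the share of the 2046 regions with a fold of at least 3 that held an ISRE was 2.39% from 10 bp before to 10 bp after the summit and 2.64% in the next step, against 0.733% in the step that begins 110 bp before the summit. For all 17312 regions it was 0.901% at the summit and 0.514% at that distance. In Cispl-only regions the share fell to 0.125% at the summit, and the AGAA order of the letters was at 0.387% there in all 17312 regions and at 0.526% in the step that begins 110 bp before.

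**Figure D3:**
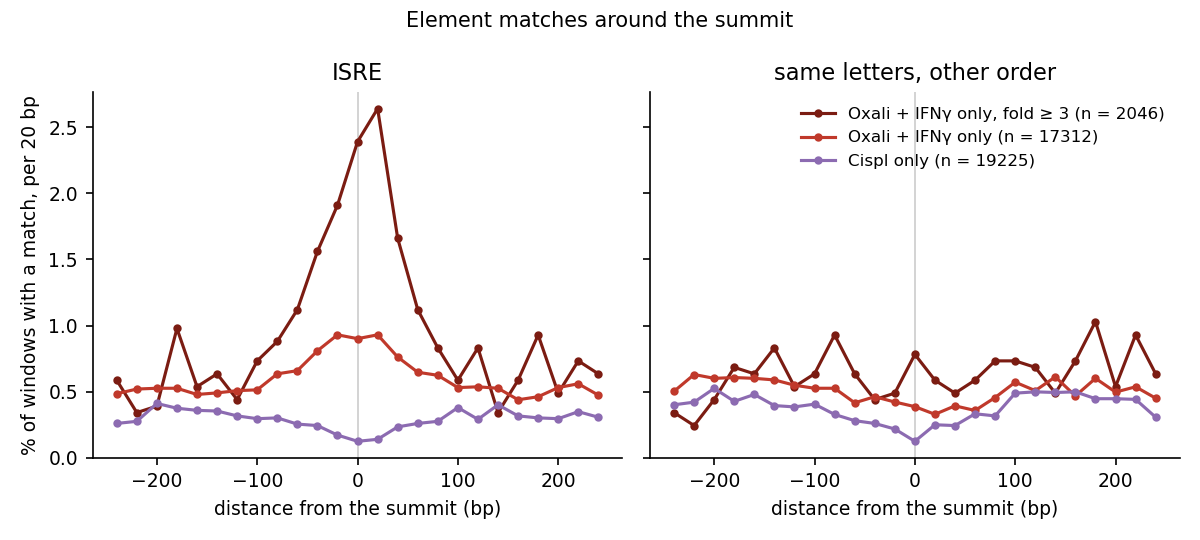
Share of windows with a match per 20 bp (vertical axis, percent) against distance from the summit (horizontal axis, bp) for the ISRE and for its letters in the AGAA order. The ISRE is most frequent near the summit of the combination-only regions, with 2.39% at the summit and 2.64% in the next step for those with a fold of at least 3, and dips to 0.125% in the Cispl-only regions.

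Of the other elements, the GAS was found in 5.77% of the regions (5.43 to 6.13) and in 6.05% of all merged regions. The AP-1 site (TGACTCA or TGAGTCA), bound by JUN and FOS, was in 16.6% against 17.6%, a share like that of the Oxali-only regions (17.4%) and above that of the Cispl-only regions (7.76%). The AP-1 share was the higher one with the 100000 strongest intervals of every list (24.9% against 19.9%) and with 500 bp merging (20.1% against 19.5%). It stayed lower within 50 bp of the summit (12.8% against 13.8%) and without repeats at the summit (17.3% against 18.5%). Like that of the ISRE, its share was higher in stronger calls: over the same fold classes it was 10.6%, 17.3%, 23.3% and 22.2% (16.5 to 29.2). The Oxali-only regions had 11.3%, 18.5% and 20.8% in the first 3 classes. An NF-kB site was in 5.00% (4.68 to 5.33) against 4.03%, while the same site read backwards was in 4.89% and 5.23%. Regions called only with Cispl, Oxali, IFNγ or Ctrl held the site in 2.75%, 3.30%, 3.51% and 3.14%. Read backwards it was in 4.22%, 4.49%, 4.08% and 5.91% of them. Regions shared by the combination and Oxali, and by no other group, held the site in 6.36%. The RUNX site (TGTGGTT) was in 9.15% against 10.3%, and in 16.1% of the Oxali-only regions. The CTCF site was in 0.618% against 3.52%, and the ETS site (CCGGAAGT) in 0.260% against 0.646%. The CRE (TGACGTCA) was in 0.243% against 0.469%, and the p53 element in 0.0116% (2 regions) against 0.00711%. No match says only that these letters are absent from the window.

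The ISRE share also depended on GC content, and the difference was seen within GC classes. Away from start sites, at a GC content of 45 to 50%, it was 5.36% (4.79 to 6.01) of the combination-only regions, 2.07% of the Cispl-only regions and 2.80% of all merged regions. Under 40% GC these shares were 13.3%, 5.43% and 5.45%, and over 55% GC they were 1.41%, 0.901% and 0.925%, where the intervals overlapped. Of the 945 regions with an ISRE, 191 (20.2%) had a summit window masked as repeat.

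The regions lay near known interferon-response genes about as often as all merged regions did. Of the 17312, 157 (0.907%, 0.776 to 1.06) were within 50 kb of a start site of the 117 genes in the interferon lists, against 0.898% of all merged regions. An ISRE was held by 8 of those 157 (5.10%, 2.60 to 9.73) and by 937 of the 17155 farther away (5.46%), and the stricter form by 4.46% (2.18 to 8.92) and 2.30%. Of the 162 regions with a fold of at least 4, 3 were within 50 kb of such a start (1.85%, 0.632 to 5.30). That interval includes the 0.898% of all merged regions. Counted by gene, 28 of the 114 interferon-list genes that are protein-coding in the annotation (24.6%, 17.6 to 33.2) had a combination-only region in the gene or 5 kb around it, against 26.2% of all 21924 protein-coding genes. For Cispl-only regions the figures were 36 genes (31.6%) and 34.1%. Within 1 kb of the gene's start the count was 5 of 114 (4.39%, 1.89 to 9.86), against 2.65% of all genes. Per Mb of these windows, the interferon genes held 13.2 combination-only regions against 7.71 over all protein-coding genes, and 172 merged regions against 111. Counted against the merged regions there, the combination-only regions were 48 of 625 (7.68%, 5.84 to 10.0) in the interferon windows and 6.96% over all protein-coding genes.

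**Figure D4:**
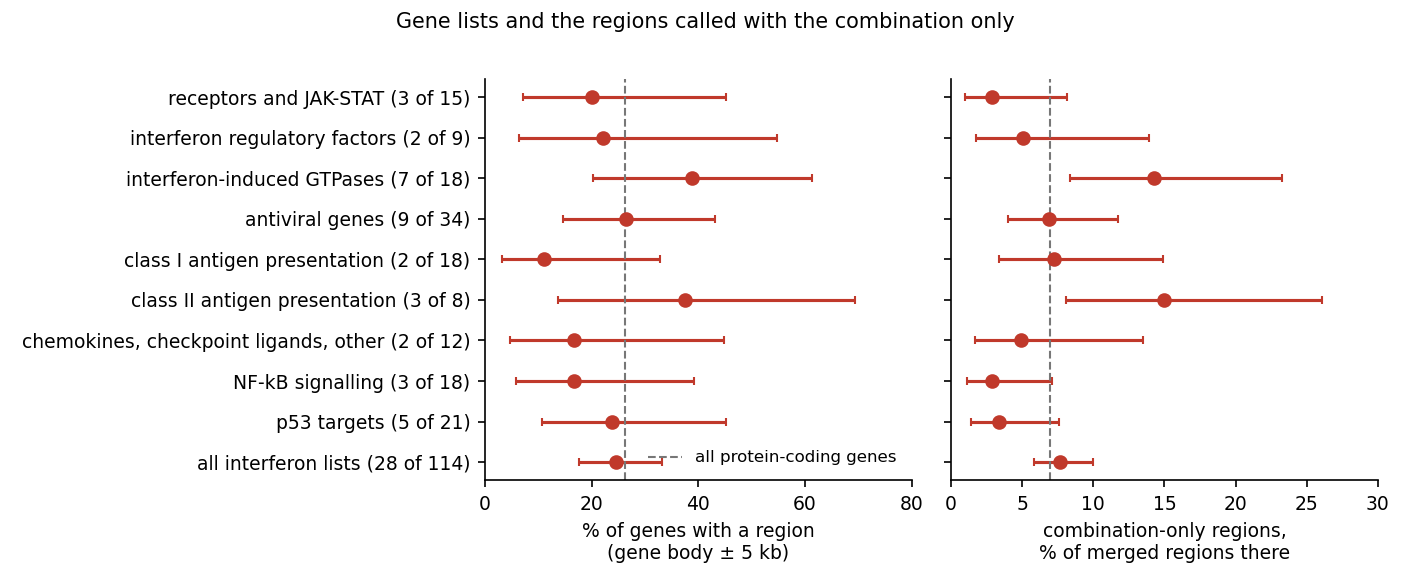
For each gene list, the share of its genes with a combination-only region (left axis panel, percent) and the combination-only share of the merged regions in its windows (right panel, percent), with 95% Wilson intervals; the dashed lines mark all protein-coding genes, 26.2% and 6.96%. Only the interferon-induced GTPases (14.3%) and class II genes (15.0%) have intervals that lie above the line in the right panel. Ciita held 6 of the 9 class II regions and Iigp1 5 of the 12 GTPase regions, which the intervals count as independent.

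Among the lists, the combination-only share of the merged regions was highest at the class II antigen presentation genes (9 of 60, 15.0%, 8.10 to 26.1) and the interferon-induced GTPases (12 of 84, 14.3%, 8.37 to 23.3). These lists were chosen with earlier results of the same data known, so their order is a description. Ciita held 6 of the 9 class II regions and Iigp1 5 of the 12 GTPase regions. The intervals count such neighbouring regions as independent. The GTPases, which attack the vacuoles of intracellular pathogens, had a region at 7 of 18 genes (38.9%, 20.3 to 61.4), against 26.2% of all protein-coding genes. Gbp4, Gbp8 and Gbp9 share the region chr5:105141508-105141682 in this count. Iigp1 (chr18:60376027-60392634, plus strand) had 5 of the 7 merged regions in its window, with pileups of 36, 40 and 39 at -2400, -1925 and -356 bp from the start and of 31 and 37 at 614 and 964 bp past it. None of these 5 was called in another group, while a region between them, centred at -1344 bp, was called with Oxali (pileup 37), Cispl (35) and the combination (65), and in neither the Ctrl nor the IFNγ list.

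The Gbp cluster of chromosome 5 held a string of such regions. At Gbp8, whose annotated gene spans Gbp9 and starts next to the Gbp4 start, the strongest were a region over a start site (chr5:105053243-105054036, pileup 44, fold 3.24, 4 summits) and the intronic region with the ISRE and GAS shown above (pileup 46, fold 3.38). At Gbp4, the region at -2013 bp from the start reached 59 reads over 21.5, and the region whose window is shown above, 6235 bp upstream, had a pileup of 57 over 12.9 (fold 4.17). Farther along, 3 regions with pileups of 48, 47 and 45 lay 8492 to 18848 bp from Gbp6 and 1 with a pileup of 47 lay 7128 bp from Gbp11. The Gbp4 start itself was open in every list, with pileups of 37 (Ctrl), 112 (Oxali), 77 (Cispl), 28 (IFNγ) and 168 (Oxali + IFNγ). Gbp genes are close copies, and reads that map equally well to several of them cannot be assigned. At Igtp, the region with the ISRE shown above lay 15528 bp upstream, nearer to a start of Mrpl22 (11938 bp), with a pileup of 104, a background of 19.4 and a fold of 5.15, and the nearest interval of another list was 2973 bp away. Ifi47 (59 over 36.3), Mx1 (33) and Gbp10 (26) each had 1 weaker region.

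The region of highest fold within 50 kb of an interferon gene lay at chr16:10452192-10453106, 4830 bp from Tvp23a and 26953 bp upstream of the nearest start of Ciita, the transactivator of class II genes, with a pileup of 109 over 17.8 (fold 5.85) and 4 summits. In the gene or 5 kb around it (chr16:10480059-10528418, plus strand) Ciita had 6 combination-only regions with pileups of 25 to 41, the strongest in an intron 16305 bp downstream of the start (41, fold 3.02). Among the shared regions at Ciita, the one centred at -14610 bp had pileups of 140 (Ctrl), 163 (Oxali), 211 (Cispl), 84 (IFNγ) and 324 (Oxali + IFNγ), and the one at an internal start, 9941 bp downstream, had no call in Ctrl, 50 (Oxali), 54 (Cispl), 24 (IFNγ) and 89 (Oxali + IFNγ). H2-Eb1, which encodes a class II beta chain, had 1 region in an exon (chr17:34314313-34314606, pileup 42, fold 3.09), 132 bp from an interval of another list. H2-DMa, part of the class II peptide editor, had 2, at the neighbouring Brd2 start (237 over 148) and 1559 bp from H2-DMb2 (56 over 23.1).

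**Figure D5:**
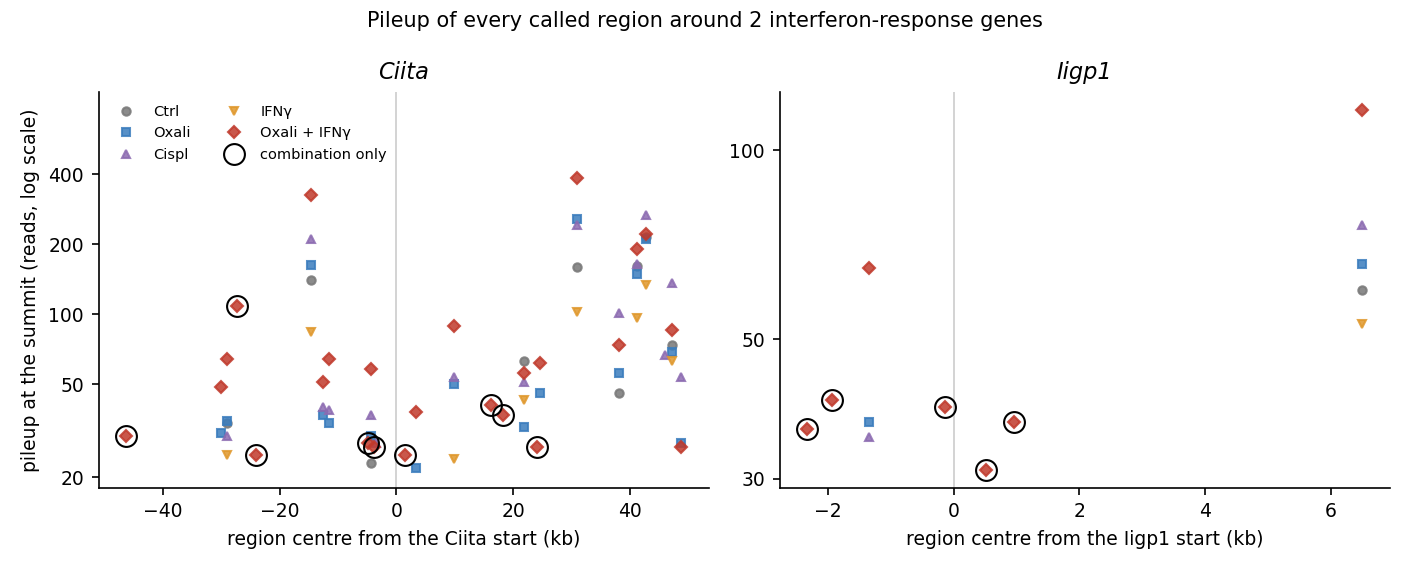
Pileup at the summit (vertical axis, reads, log scale) of every merged region called in each list, against distance from the gene's start (horizontal axis, kb), around Ciita and Iigp1; black rings mark combination-only regions and a missing symbol means no call. The ringed region 27 kb upstream of Ciita, with a pileup of 109, stands above the other ringed ones, which lie at 25 to 41.

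At the class I antigen presentation genes, 2 of 18 had a region (11.1%, 3.10 to 32.8), against 26.2% of all protein-coding genes. The regions were 6 of 83 merged regions (7.23%, 3.36 to 14.9), near the 6.96% of all genes. Nlrc5, the class I transactivator, had 5 combination-only regions out of 26 merged regions, all intronic, at 10859, 11112, 21983, 24469 and 65017 bp from the start with pileups of 34, 27, 32, 35 and 41. The same window held regions called only with IFNγ, with pileups of 25, 27, 21 and 40, and a region called only with Cispl, with 29. Tapbp, which loads peptides on class I molecules, had 1 (123 over 65.9, fold 1.85). None was found at the other 16 genes of the list, which include the immunoproteasome subunits Psmb8 (0 of 4 merged regions) and Psmb9 (0 of 1) and the peptide transporter genes Tap1 (0 of 2) and Tap2 (0 of 5).

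Of the 34 antiviral genes, 9 had a region (26.5%, 14.6 to 43.1), against 26.2% of all protein-coding genes. The regions were 6.90% of the merged regions there, close to the 6.96% of all genes. Oas2, a sensor of double-stranded RNA, had the strongest: it covered the start (chr5:120749752-120750068, summit at -65 bp from the start), with a pileup of 52 over 12.9, a fold of 3.81 and the ISRE shown above at the summit, 2974 bp from any interval of another list. Oas1a had a region at -777 bp (pileup 32), Oas3 a weak one at -2764 bp (97 over 51.5), and Eif2ak2, which encodes the kinase PKR, an intronic one (36). Trim21 had a region with an ISRE (33), 12055 bp past its start and at the olfactory receptor gene Olfr549. Xaf1, Trim25, Samhd1 and Rnf213 had regions with pileups of 27 to 69. Among the chemokine, checkpoint ligand and other induced genes, Casp1, the protease that matures IL-1β and IL-18, had 2 regions at its start, at -107 bp (chr9:5298322-5298494, pileup 43) and at 148 bp (chr9:5298582-5298746, pileup 41, with an ISRE), and no other list had an interval within 9884 bp. Pdcd1lg2, which encodes PD-L2, had 1 in an intron (37), and Cd274, Cxcl9 and Cxcl10 had none.

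In the signalling and comparison lists, the interval of the share of merged regions included the 6.96% of all genes each time. The receptors and JAK-STAT list had 3 of 104 merged regions (2.88%, 0.986 to 8.14): an intronic repeat in Ifnar2 (62 over 17.3), a weak region behind Jak2 (27), and a shoulder of the Socs1 promoter (284 over 143). Ifngr2, the second chain of the IFNγ receptor, had none of its 6, and Usp18, which restrains interferon signalling, had none within 5 kb but 1 at 18782 bp upstream, nearer to Tuba8 at 16191 bp (chr6:121226887-121227124, pileup 48, with the 3 ISRE shown above). The regulatory factors had 3 of 59 (5.08%, 1.74 to 13.9). Among them, Irf8 had 2 (85 over 40.1, and 27) and Irf3 1, which is at the shared Bcl2l12 promoter (124 over 67.2), while Irf1, Irf7 and Irf9 had none. In the comparison lists, NF-kB genes held 4 of 140 merged regions (2.86%, 1.12 to 7.12). By −log10 q the strongest was at Rel (267 over 104 at -2016 bp), and none of the 22 merged regions at Nfkb1 was combination-only. The p53 targets held 5 of 150 (3.33%, 1.43 to 7.57), with Btg2 the strongest by −log10 q (161 over 70.4).

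The regions with the highest −log10 q were mostly far from interferon genes and mostly on raised background. The first was a repeat-masked stretch in 2700054A10Rik (chr17:13589860-13590819, pileup 342 over 37.6, fold 8.89, 3 summits). It was followed by regions near Paxip1 (388 over 114), Map3k9 (375 over 144), Trim28 (294 over 105), Dpy19l1 (310 over 118), Hnrnpf (285 over 104), the Ciita upstream region, Itpk1 (326 over 132), Chst8 (96 over 15.2) and Zfp516 (265 over 98.9). By fold, a measure added after the values were seen, the order changed to regions on low background: after the first came an intergenic region 1518687 bp from Cntnap5a (85 over 12.9, 5 summits, with the nearest interval of another list 680164 bp away), Chst8, the Ciita upstream region, a Mast4 intron (73), and the Plppr5 (73), Capza2 (73) and Rgs17 (72) regions shown above. The next were an intron of 4930405D11Rik near Tom1l1 (71, with an ISRE and an AP-1 site) and an intron of Nfib (71, with a GAS and an AP-1 site). Of the 162 regions with a fold of at least 4, 153 stood within 1% of the lowest background and 18 (11.1%) were within 500 bp of another list's interval.

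The regions were mostly single. Joining neighbours within 5 kb gave 14423 single regions, 1199 pairs, 131 groups of 3, 22 of 4 and 2 of 5, the last in Kank1 (pileups 29 to 35) and Ttc28 (26 to 35). The genes with most of them were long: Gm20388, annotated over 4435 kb (75 of 1167 merged regions), Mecom (24 of 69), Ttc28 (23 of 94), Fgfr2 (22 of 481) and Tmem178b (22 of 81). In 200 kb windows, the densest held 17 of 45 merged regions (Ttc28), followed by 15 of 46 around Pdx1, Cdx2 and Flt3 and 13 of 30 at Pag1.

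The line was checked against markers of its lineage in the combination list. Start sites of the epithelial and prostate genes Krt8 (pileup 778), Foxa1 (992) and Hoxb13 (729) were called, and those of Epcam, Cdh1 and Krt18 were not. Of the immune markers, Spi1 (51) and Ptprc (36) had a call and Cd3e, Cd79a and Itgam had none, and of the stromal and endothelial markers Pdgfra (1116), Col1a1 (366), Col1a2 (54) and Pecam1 (35) had one and Dcn and Cdh5 had none. An open start site is not expression, and the part of other cells in the calls was not tested.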

How the data were processed

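Myc-CaP cells of 5 groups, 2 ATAC-seq libraries each, were analysed. Per the methods and the labels, the authors trimmed reads (cutadapt), aligned them to mm10 (Bowtie2 2.2.8, several positions kept per read), kept mapping quality of at least 30, removed duplicates (marked by Picard) and mitochondrial reads, pooled both libraries of a group, called peaks with MACS2 2.1.0 (p of 0.01, extension of 150 bp) and removed blacklisted regions. The deposited lists give, per summit, a score, the fold (ratio) of pileup over background, and −log10 p-values and q-values as MACS2 wrote them. Pileup and background were recovered from the deposited fold and −log10 p. Merging, annotation with GENCODE M21, sequence scans of GRCm38 and Wilson intervals were scripted (Python 3.11.15, scipy 1.17.1) and tested on simulated data. Pooling leaves no replicate error, the methods give only a lower limit of depth for a library, and shares cover counting error only. The regions, gene lists and 10 elements were chosen with earlier results of these data known, and the stricter and rearranged ISRE were added after seeing the values. Named regions were the 10 of highest −log10 q, the 4 strongest genes per interferon list, all at interferon start sites, the 5 genes with most regions, and 7 genes named whatever their values; others named were picked after their values were seen. Gbp11, Mx2 and Cxcl11 of the 117 interferon-list genes are not protein-coding in M21 and were left out of gene counts. Some marker genes and 1 of the elements are not reported here. Alternatives are given in the closing section.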

Additional observations from a re-analysis of the deposited data

How the results depend on the processing

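The number of regions, 17312, fell to 7006 at q of at most 1e-05, to 11372 when regions up to 500 bp apart were merged, to 3842 with the 100000 strongest intervals of every list and to 2046 at a fold of at least 3, a limit chosen after seeing the data like that of 500 bp from any other list, and it was 24409 when the Cispl list was ignored. The start-site share of 9.75% was 11.7% at q of at most 1e-05, 7.39% with 500 bp merging, 10.7% both when the Cispl list was ignored and with the 100000 strongest intervals (all merged regions 19.5% for the latter), 19.2% with 2.5 kb around a start site (all merged regions 25.4%), 7.42% for regions over 500 bp from any other list, and 6.99% at a fold of at least 3. The ISRE share of 5.46% was 5.90% at q of at most 0.01, 7.45% at q of at most 1e-05, 6.08% both with 500 bp merging and over 500 bp from any other list, 5.00% when the Cispl list was ignored, 8.33% with the strongest intervals, 3.32% within 50 bp of the summit, 5.05% without repeats at the summit and 10.9% at a fold of at least 3, against 2.61% of all merged regions with 500 bp merging, 2.29% with the strongest intervals and 1.18% within 50 bp. The limits on q, fold and distance and the omission of the Cispl list changed only which regions were counted, and the 2.58% of all merged regions was not filtered alike. The 28 interferon genes became 16 with the strongest intervals (background 8.82% of genes against 14.0%), 78 with 50 kb on each side (61.1% against 68.4%), 14 within 5 kb of a start site (9.46% against 12.3%) and 8 at a fold of at least 3 (4.26% against 7.02%), and were 42 when the Cispl list was ignored (35.6% against 36.8%). No paired analysis was possible because both libraries of each group were pooled before the calls, and for the same reason no library could be left out. A region called in 1 list only can be under the limit in another, so absence of a call is not absence of accessibility.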
